A study of Mus musculus with 4 samples.

Results

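The cells described here are CD45+ liver cells with the RNA of natural killer (NK) receptors and of liver residency genes, without *Eomes* and without the *Cd3* genes of the T cell receptor complex. They are called ILC1-like, after the type 1 innate lymphoid cell. Members were chosen by the measured counts of 13 genes. A member held no count of *Cd3e*, *Cd3d* or *Cd3g*, at least 2 counts over *Ncr1* and *Klrb1c*, no *Eomes*, at least 1 count over *Cxcr6*, *Itga1* and *Cd200r1*, and no *Cd79a*, *C1qa*, *Kdr* or *Clec4g*. Of the 35682 cells kept (300 or more genes detected and no more than 10% of counts mitochondrial), 254 met this rule. There were 206 among 17509 tdTomato+ cells and 48 among 18173 tdTomato- cells. They are set against Eomes NK cells, which met the same conditions but held *Eomes*, whatever their residency counts, and of which there were 65 among tdTomato+ and 67 among tdTomato- cells.

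The livers came from mice of 2 months with the alleles *Stab2-CrexERT2* and *R26-LSL-tdT*, given tamoxifen at E9.5, and CD45+ cells were sorted by tdTomato. *Stab2* encodes a scavenger receptor of sinusoidal endothelium, so tdTomato marks cells in which Cre driven by this gene was active around the time of tamoxifen, and the descendants of those cells. Each sort gave 1 10x 5′ gene expression library and 1 library for γδ T cell receptor chains. Both sorts share genotype (S2 in the labels) and age. Tamoxifen is given by the study's methods, whereas the treatment entry of the labels reads no for both sorts, and the labels describe the tdTomato- sample as the control. The tdTomato+ libraries are in batch 1 and the tdTomato- libraries in batch 2, so sort and batch cannot be told apart. Whether cells of several animals were pooled is not stated in the sources used here. With 1 library per sort there was no test and no error between animals, and all intervals are 95% exact intervals that cover counting error only.

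Group 1 innate lymphoid cells carry NKp46, encoded by *Ncr1*, express the transcription factor T-bet and make interferon-γ, without a rearranged antigen receptor. In mouse liver they come as conventional NK cells, which express *Eomes*, carry CD49b and Ly49 receptors and circulate, and as ILC1, which stay in the liver sinusoids. ILC1 carry CD49a, CXCR6, CD200R1, the IL-7 receptor and the death ligand TRAIL.

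The tdTomato+ library held 203366009 unique molecular identifiers (UMIs) in 17957 deposited barcodes and the tdTomato- library 156771260 in 18444. *Kdr* or *Clec4g*, endothelial genes that the rule excludes, were detected in 73.4% of kept tdTomato+ and 5.21% of kept tdTomato- cells. This exclusion left out 91 tdTomato+ cells that met every other condition for an ILC1-like cell (median 15424 UMIs) and 35 that did so for an Eomes NK cell, against 0 and 0 in the tdTomato- library. The libraries shared 84 barcodes. Of these, 1 belonged to an ILC1-like cell, and none was ILC1-like in both libraries.

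The genes of the rule are described first, without reading anything from them. *Ncr1*, on chromosome 7 from 4337724 to 4345164 (GRCm38, GENCODE M21, plus strand), reached 1668 counts per 1000000 UMIs (CPM), summed over all member cells, in tdTomato+ ILC1-like cells and 1476 CPM in tdTomato- ones. The other NK gene of the rule, *Klrb1c*, which encodes the NK1.1 antigen of some mouse strains, was found in 72 and 6 of them. *Cxcr6*, the receptor for the chemokine CXCL16 of sinusoidal endothelium, was found in 194 of 206 tdTomato+ and 37 of 48 tdTomato- members. *Itga1*, the CD49a integrin, was found in 76 and 26 members, and *Cd200r1*, an inhibitory receptor, in 111 and 20. *Cxcr6* alone brought in 66 tdTomato+ and 13 tdTomato- members, *Itga1* alone 4 and 6, and *Cd200r1* alone 6 and 0, whereas all 3 genes were found in 45 and 6.

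Few members lay at the limits of the rule in the tdTomato+ library and more in the tdTomato- library. A single residency count was held by 13 tdTomato+ and 4 tdTomato- members. The minimum of 2 NK counts was held by 3 and 12, with medians of 17 and 6 NK counts per member. Just outside the rule, 37 tdTomato+ and 17 tdTomato- cells had neither *Eomes* nor a residency count. Those cells had 7011 and 9364 CPM of *Gzma*, 427 and 541 CPM of *Zeb2* and 64.8 and 87.8 CPM of *Il7r*. Members with a single residency count, just inside, had 346 and 1421 CPM of *Gzma* and 494 and 0 CPM of *Il7r*. These levels rest on the 13 and 4 cells given above, and all 28 tdTomato+ counts of *Gzma* lay in 1 cell. Among Eomes NK cells, 13 and 14 held a single *Eomes* count, and 8 and 12 held a residency count.

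ILC1-like cells made up 1.18% of the tdTomato+ cells (1.02 to 1.35) and 0.264% of the tdTomato- cells (0.195 to 0.350). The endothelial RNA described above gives the 2 shares unlike denominators. So does the make-up of the sorts, which the study describes as γδ T cells with a small part of other cells. An assembled γ or δ receptor chain was found in 0.754% of kept tdTomato+ and 13.9% of kept tdTomato- cells. Among cells with *Ptprc*, the gene of CD45, and without *Kdr* and *Clec4g*, the shares were 4.66% of 4420 tdTomato+ cells (4.06 to 5.32) and 0.286% of 16783 tdTomato- cells (0.211 to 0.379).
Eomes NK cells of the same libraries give a scale that does not use these denominators. There were 3.17 ILC1-like cells per Eomes NK cell in the tdTomato+ library (2.39 to 4.26) and 0.716 in the tdTomato- library (0.484 to 1.05). The intervals did not overlap over all members of these 2 libraries, but overlapped once cells that held T cell receptor RNA were left out. Among all Cd3-negative cells with the NK genes, ILC1-like cells were 66.9% of 308 tdTomato+ and 36.4% of 132 tdTomato- cells. The ratio was 3.23 in tdTomato+ and 0.464 in tdTomato- cells over cells with at least 5000 UMIs, a limit chosen after the data had been seen.

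**Figure D1:**
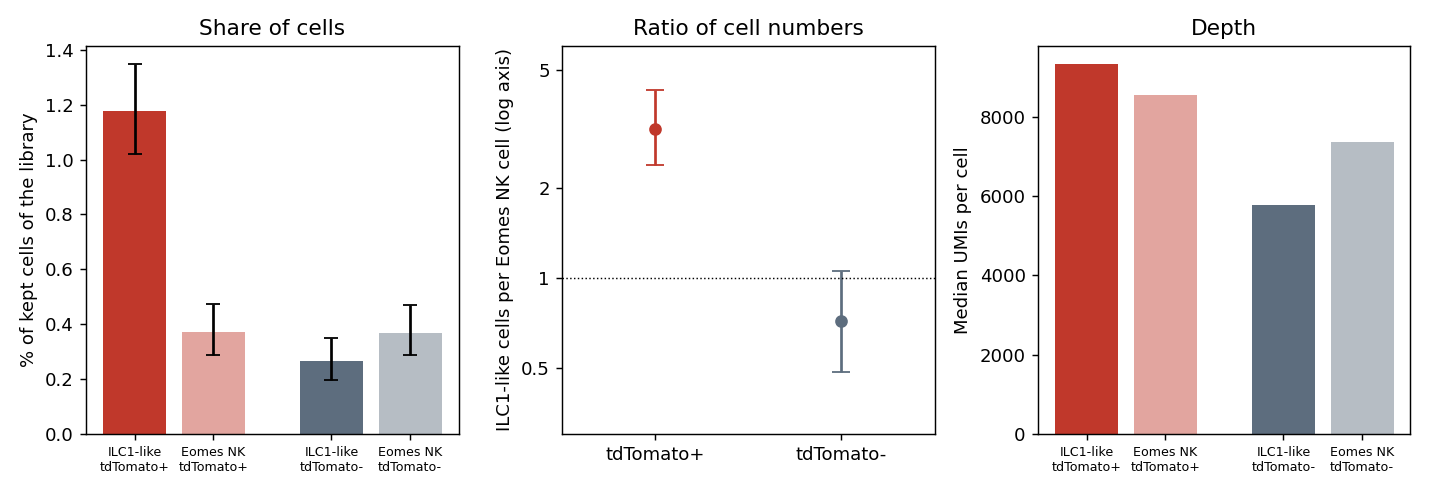
Left, ILC1-like and Eomes NK cells as a percentage of the kept cells of each library, with 95% exact binomial intervals; middle, number of ILC1-like cells per Eomes NK cell on a log axis, with its 95% interval; right, median UMIs per cell. The ratio was 3.17 in tdTomato+ and 0.716 in tdTomato- cells, and the tdTomato- ILC1-like cells were the shallowest of the 4 groups, with a median of 5762 UMIs.

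RNA of T cell receptor constant genes was common in ILC1-like and in Eomes NK cells. A count of *Trac*, *Trbc1*, *Trbc2* or *Trdc* was found in 183 of 206 tdTomato+ and 38 of 48 tdTomato- members, against 49 of 65 and 52 of 67 Eomes NK cells. *Trac* or *Trdc*, the constant genes of the α and δ chains, was found in 57 and 13 members, against 28 and 30 Eomes NK cells. Taken singly, *Trbc1* was found in 69.4% of tdTomato+ and 47.9% of tdTomato- members, against 49.2% and 46.3% of Eomes NK cells, and *Trbc2* in 59.7% and 39.6%, against 32.3% and 19.4%. In B cells, which should lack both, *Trbc1* was found in 0.738% and 0.980% and *Trbc2* in 1.48% and 0.654% of cells, at median depths of 6519 and 5784 UMIs, against 9322 and 5762 UMIs in members. Without cells that held any of the 4 genes, the shares came to 0.131% and 0.0550%, and the ratio to Eomes NK cells to 1.44 (0.727 to 2.91) over 23 tdTomato+ ILC1-like cells, against 0.667 (0.268 to 1.59) over 10 tdTomato- ones, so that the intervals overlapped. Leaving out only cells with *Trac* or *Trdc* gave ratios of 4.03 and 0.946. An assembled γ or δ chain was found in 0 of 206 tdTomato+ members, which allows a share of up to 1.46% (3 cells of the total; exact upper limit 1.77%), and in 0 of 48 tdTomato- members, which allows up to 6.25% (exact upper limit 7.40%). Cells with the same NK genes and a *Cd3* count, called T cells with NK genes below, had such a chain in 10 of 157 tdTomato+ and 693 of 2481 tdTomato- cells. Of these cells, 33.1% of tdTomato+ and 97.4% of tdTomato- ones held *Cd3e*. *Cd3d* was found in 48.4% and 95.4% and *Cd3g* in 89.2% and 97.7%, so the name is less certain for the tdTomato+ group.

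The label was set beside ILC1 genes that the rule did not use. Their list was chosen with earlier results of these data known, so it is no independent check of the label. A gene is called higher or lower in ILC1-like than in Eomes NK cells of a library where it reached 50 CPM in either group, differed at least 2-fold and had an interval that left out no change. Among 4082 genes with that level in the tdTomato+ library, 250 (6.12%) passed as higher and 152 (3.72%) as lower. Among 4345 in the tdTomato- library, 531 (12.2%) passed as higher and 207 (4.76%) as lower. In both libraries together 171 of 3736 were higher (4.58%) and 81 lower (2.17%). The median log2 ratio over all genes with that level was 0.02 in tdTomato+ and 0.12 in tdTomato- cells. Intervals were set gene by gene and not adjusted for the number of genes.

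ILC1 identity genes were higher in ILC1-like than in Eomes NK cells almost throughout. Of 16 list members 15 reached the level, and 14 of these were higher in both libraries. The list median was 2.30 in the tdTomato+ library, or 2.62 with genes at 0 in Eomes NK cells set at their bound, and 2.37 in the tdTomato- library. The remaining member was *Cd69*, a membrane protein that holds lymphocytes in tissue, with log2 ratios of 0.73 (0.50 to 0.97) and 1.09 (0.83 to 1.35). *Gpr55*, a lipid receptor, stayed under the level with 8.43 CPM in tdTomato+ and 38.2 CPM in tdTomato- ILC1-like cells. In the tdTomato+ library, T cells with NK genes held 176 CPM of *Tnfsf10* and 88.4 CPM of *Zfp683*, close to the member levels given below. Their *Il7r* and *Tmem176a* levels, 122 and 146 CPM, were lower than in members. Not every gene of the list thus set members apart from these cells.

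*Tnfsf10*, which encodes TRAIL (chromosome 3, from 27317028 to 27342427, plus strand), stood at 168 CPM in ILC1-like and 11.8 CPM in Eomes NK cells of the tdTomato+ library. The tdTomato- library held 156 CPM in ILC1-like and 7.57 CPM in Eomes NK cells, so the log2 ratios were 3.83 (2.84 to 5.05) and 4.37 (2.91 to 6.30). After thinning each cell to 2000 UMIs it was detected in 26.3% of 205 tdTomato+ and 24.4% of 41 tdTomato- ILC1-like cells. Before thinning it was detected in 69.9% of tdTomato+ members and 24 of 48 tdTomato- members, against 7.38% and 2.61% of B cells, which should lack it (median UMIs 9322 and 5762 in ILC1-like, 6519 and 5784 in B cells).
*Il7r*, the α chain of the IL-7 receptor (chromosome 15, from 9505788 to 9530176, minus strand), reached 378 CPM in tdTomato+ ILC1-like cells, against 0 counts in the 65 Eomes NK cells, at least 85.5-fold higher with a floor of 3 counts over the group. The tdTomato- library held 361 CPM against 34.1 CPM, and 56% of the Eomes NK counts lay in 1 cell. It was detected in 71.8% of tdTomato+ and 45.8% of tdTomato- ILC1-like cells, in 45.9% and 31.7% after thinning, and in 1.11% and 1.63% of B cells before thinning.

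*Ltb*, a lymphotoxin that shapes lymphoid tissue, was higher by a log2 ratio of 2.22 (1.95 to 2.50) in tdTomato+ and 2.18 (1.77 to 2.60) in tdTomato- cells. *Inpp4b*, a lipid phosphatase, was higher by 3.61 (3.07 to 4.21) and 3.69 (3.15 to 4.27). *Xcl1*, a chemokine for cross-presenting dendritic cells, had 4179 CPM in ILC1-like against 913 CPM in Eomes NK cells of the tdTomato+ library, and 2077 against 964 CPM on the tdTomato- side. *Cd7*, a lymphoid surface protein, was higher by 2.30 and 1.48, and *Rgs1*, which dampens chemokine receptor signaling, by 1.66 and 1.36. T cells with NK genes of the tdTomato+ library held 554 CPM of *Ltb*, 454 CPM of *Inpp4b* and 2855 CPM of *Xcl1*. Eomes NK cells of that library held 177, 41.3 and 913 CPM, so high levels of these genes were not particular to members.

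The neighboring genes *Tmem176a* and *Tmem176b*, membrane proteins linked to cation flux, were among the genes furthest apart. *Tmem176a* stood at 464 CPM in ILC1-like cells and 4.42 CPM in Eomes NK cells of the tdTomato+ library, and at 344 against 11.4 CPM in tdTomato- cells. *Tmem176b* stood at 793 against 10.3 CPM in tdTomato+ and at 733 against 32.2 CPM in tdTomato- cells. The *Tmem176a* ratio was 105 (35.8 to 509) in the tdTomato+ library, where Eomes NK cells held 3 counts, and 30.3 in the tdTomato- library. Of the *Tmem176b* counts in Eomes NK cells, 86% lay in 1 tdTomato+ and 76% in 1 tdTomato- cell. The 2 genes overlap on opposite strands, on chromosome 6 from 48840919 to 48847071 (*Tmem176a*, plus strand) and from 48833818 to 48841496 (*Tmem176b*, minus strand). Whether the counting used strand is not stated in the sources used here, so reads in the overlap cannot be assigned with certainty.
Their promoters are shown because the pair differs together. The windows run from 250 bases before to 50 after the RefSeq start site (GRCm38.p6), chr6:48841233-48841532 on the plus strand for *Tmem176a* and chr6:48841088-48841387 on the minus strand for *Tmem176b*. The start sites lie 346 bases apart and the windows share 155 bases. Each is printed 5′ to 3′. Neither holds a match to the 3 motifs described with the granzyme genes, so no letters are in capitals.
Tmem176a: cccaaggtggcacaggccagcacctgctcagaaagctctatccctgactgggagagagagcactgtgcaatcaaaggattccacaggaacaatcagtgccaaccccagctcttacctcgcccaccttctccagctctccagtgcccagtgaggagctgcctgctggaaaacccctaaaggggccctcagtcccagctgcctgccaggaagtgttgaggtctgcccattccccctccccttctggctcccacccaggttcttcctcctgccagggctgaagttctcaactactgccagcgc
Tmem176b: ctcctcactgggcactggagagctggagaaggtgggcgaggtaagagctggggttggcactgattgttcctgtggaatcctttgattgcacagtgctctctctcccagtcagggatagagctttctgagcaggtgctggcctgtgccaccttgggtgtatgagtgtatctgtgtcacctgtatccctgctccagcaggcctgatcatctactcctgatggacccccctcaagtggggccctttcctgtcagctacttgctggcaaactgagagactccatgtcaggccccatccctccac

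The other genes that ranked highest in both libraries included surface receptors and enzymes. *P2rx7*, an ATP-gated channel (chromosome 5, from 122643911 to 122691432, plus strand), stood at 52.0 CPM in ILC1-like and 1.47 CPM in Eomes NK cells of the tdTomato+ library, and 73.0 against 1.89 CPM among tdTomato- cells, with 1 Eomes NK count in each. *Tnfrsf25*, the death receptor for TL1A, had ratios of 20.6 (6.93 to 101) and 34.9 (5.54 to 1448), against 3 counts and 1 count. *Asb2*, a ubiquitin ligase adaptor, stood at 420 against 22.1 CPM in tdTomato+ and 417 against 5.68 CPM in tdTomato- cells. *Mmp9*, a matrix protease, was at least 16.1-fold higher in tdTomato+ ILC1-like cells, *Tmem273* at least 15.2-fold and *Apol7b* at least 17.0-fold, each against 0 counts.

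Genes of circulating NK cells were lower in ILC1-like cells without exception among those that reached the level, 16 of 16 in the tdTomato+ and 15 of 15 in the tdTomato- library. The list medians were -4.27 and -3.86, or -4.57 and -4.86 with genes at 0 set at their bound. *Cma1*, a chymase-type serine protease, had no count in any ILC1-like cell, against 233 and 303 CPM in Eomes NK cells of the tdTomato+ and tdTomato- libraries. It was thus at least 166-fold and at least 29.1-fold lower. *Itga2*, the CD49b integrin, stood at 15.0 against 195 CPM and at 55.6 against 229 CPM, and *Itgam*, CD11b of mature NK cells, at 10.8 against 183 CPM and 20.8 against 303 CPM. *S1pr5*, the sphingosine phosphate receptor by which NK cells leave tissue, stood at 3.28 against 168 CPM and at 17.4 against 248 CPM. *Sh2d1a*, the adaptor SAP of SLAM receptors and no member of the list, was also among the genes furthest down, with log2 ratios of -4.21 (-5.05 to -3.46) and -3.84 (-5.74 to -2.44).

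**Figure D2:**
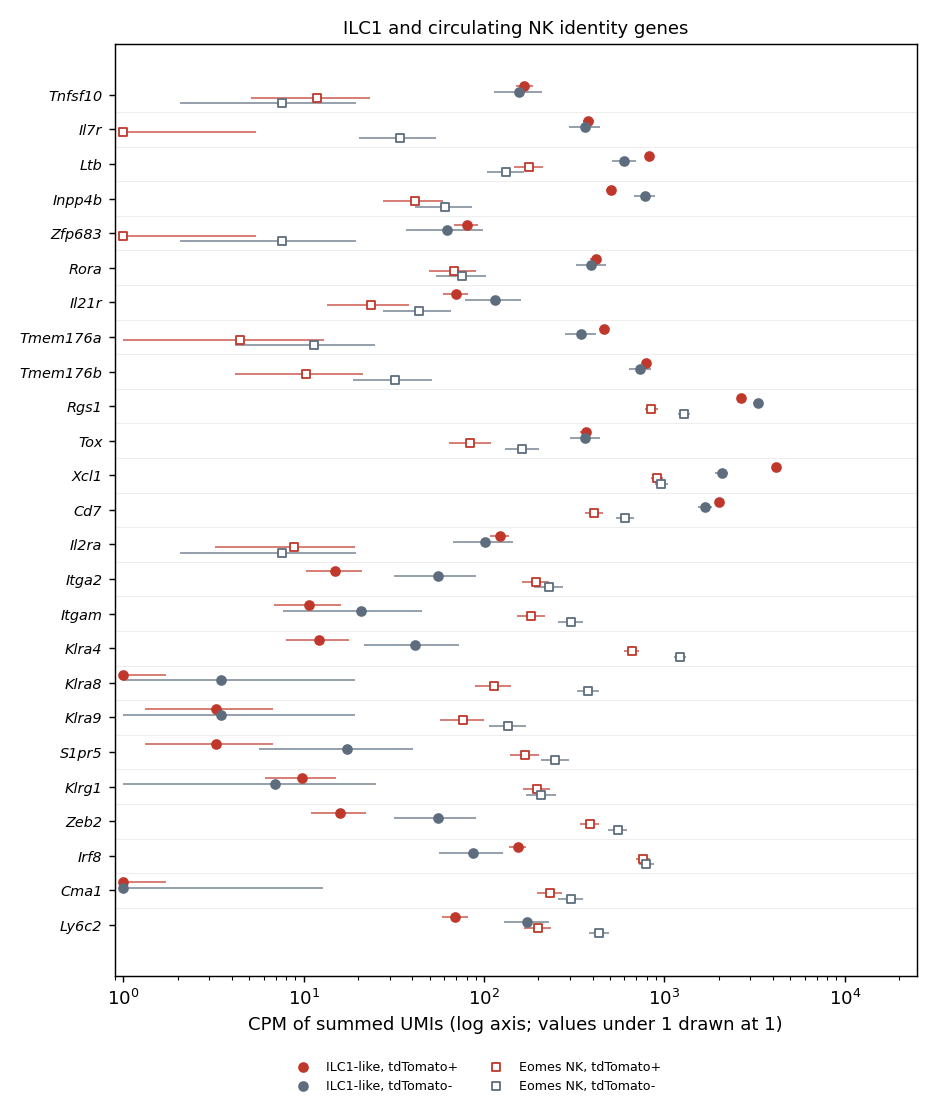
CPM of summed UMIs (log axis, values under 1 drawn at 1) of ILC1 identity genes, *Tnfsf10* to *Il2ra*, and circulating NK genes, *Itga2* to *Ly6c2*, in ILC1-like cells (filled circles) and Eomes NK cells (open squares) of the tdTomato+ (red) and tdTomato- (grey) libraries; lines are 95% exact Poisson intervals. Filled circles lie to the right of the open squares of the same color for the upper genes and to the left for the lower genes.

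Transcription factors were split. Of 24 that reached the level in both libraries, 7 were higher and 4 lower in ILC1-like cells of both. *Zfp683*, which encodes Hobit and is known from liver ILC1, stood at 80.1 CPM in ILC1-like cells against 0 in Eomes NK cells of the tdTomato+ library, at least 18.1-fold higher, and at 62.5 against 7.57 CPM among tdTomato- cells. *Rora*, a nuclear receptor, stood at 416 against 67.8 CPM and at 392.5 against 75.7 CPM. *Ikzf2*, which encodes Helios, had log2 ratios of 2.61 and 2.64, *Ahr*, the sensor of aryl hydrocarbons, 2.64 and 3.76, *Maf* 2.34 and 2.46, *Tox* 2.12 and 1.16, and *Zbtb16*, which encodes PLZF, 1.61 and 1.10.
The 4 lower factors were *Zeb2*, *Irf8*, *Prdm1* and *Lef1*. *Zeb2*, which acts in terminal NK maturation, stood at 15.9 CPM in ILC1-like and 386 CPM in Eomes NK cells of the tdTomato+ library, and at 55.6 against 551 CPM among tdTomato- cells, where 75% of the ILC1-like counts lay in 1 cell. *Tbx21*, which encodes T-bet, was close to equal, with 308 against 274 CPM in tdTomato+ cells (log2 ratio 0.17, -0.07 to 0.41) and 410 against 358 CPM in tdTomato- cells (0.20, -0.15 to 0.54). *Id2*, needed by all innate lymphoid cells, missed the 2-fold limit at 0.93 (0.81 to 1.05) and 0.99 (0.79 to 1.19).

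Adhesion and homing receptors were more often lower than higher. Of 15 in this list that reached the level, 2 were higher in both libraries, *Rgs1* and *Cd44*, and 7 were lower, among them *Itga2*, *Itga4*, *Itgam*, *Itgb1*, *Itgb2* and *S1pr5*. *Itga4*, the α4 integrin, stood at 111 against 586 CPM in tdTomato+ cells and 174 against 882 CPM in tdTomato- cells. Of 4 chemokine receptors, *Cxcr3*, a receptor of interferon-induced chemokines, was higher by 2.37 (1.89 to 2.89) and 2.21 (1.52 to 2.94), and *Cxcr4*, which holds cells in bone marrow, was lower with -1.83 (-2.35 to -1.31) and -1.57 (-2.55 to -0.71).

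Ly49 receptors, inhibitory and activating receptors for MHC class I, were lower in ILC1-like cells, 5 of 6 in both libraries, namely *Klra3*, *Klra4*, *Klra7*, *Klra8* and *Klra9*. *Klra8*, the activating receptor Ly49H, had 0 counts in tdTomato+ ILC1-like cells against 113 CPM in Eomes NK cells, and 1 count against 379 CPM in the tdTomato- library. *Klra4*, Ly49D, stood at 12.2 against 659 CPM and at 41.7 against 1218 CPM. *Klra1*, Ly49A, was lower in the tdTomato+ library (-4.55, -5.30 to -3.87) and stood at 191 against 320.0 CPM in the tdTomato- library (-0.74, -1.21 to -0.30). *Klra5*, Ly49E (chromosome 6, from 129898996 to 129917650, minus strand), went the other way. It stood at 337 CPM in tdTomato- ILC1-like cells, against 1 count in Eomes NK cells, and at 25.3 against 13.3 CPM in the tdTomato+ library. The Ly49 genes are close copies of each other, so their counts are uncertain between members.
Of 11 receptors of the NKG2 and NKR-P1 families, none was higher and 3 were lower in both libraries, *Klre1*, *Klrg1* and *Klri2*. *Klrg1*, a receptor of mature NK cells, stood at 9.83 against 196 CPM and at 6.95 against 208 CPM. *Klrk1*, the activating receptor NKG2D, had log2 ratios of 0.57 (0.42 to 0.73) and 0.26 (0.05 to 0.48), and *Klrc1*, the inhibitory receptor NKG2A, 0.69 (0.50 to 0.88) and 0.71 (0.39 to 1.02), both under 2-fold.
Among 13 activating adaptors and kinases, *Cd226*, the receptor DNAM-1, was higher, at 751 against 115 CPM in tdTomato+ and 1028 against 131 CPM in tdTomato- cells. *Tyrobp*, the adaptor DAP12 through which activating Ly49 receptors signal, and the kinase *Syk* were lower in both, with log2 ratios of -1.02 and -1.27 for *Tyrobp* and -1.93 and -2.55 for *Syk*. The other 10 did not pass in both libraries.

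Granule and death ligand genes were split. Of 12 in this list that reached the level, *Gzma*, *Prf1*, *Serpinb9* and *Serpinb9b* were lower in both libraries, and *Gzmc* and *Tnfsf10* were higher, and the other 6 did not pass in both libraries. *Gzma*, a tryptase-like granzyme (chromosome 13, from 113093825 to 113100981, minus strand), stood at 370.4 CPM in ILC1-like and 6938 CPM in Eomes NK cells of the tdTomato+ library, and at 250.1 against 9375 CPM among tdTomato- cells. *Prf1*, the pore-forming perforin, stood at 204 against 978 CPM in tdTomato+ and at 181 against 1534 CPM in tdTomato- cells. *Gzmb*, the granzyme that triggers apoptosis, was lower in the tdTomato+ library (501 against 1590 CPM, log2 -1.67, -1.79 to -1.54) and under the 2-fold limit in the tdTomato- library (917 against 1218 CPM, -0.41, -0.62 to -0.20). *Nkg7*, a granule membrane protein, had -0.57 and -1.14, and *Fasl*, the Fas ligand, -0.15 (-0.47 to 0.18) and -0.25 (-0.65 to 0.14).
*Gzmc*, on chromosome 14 from 56231441 to 56234656 (minus strand) within a cluster of related granzymes, stood at 142 CPM in ILC1-like cells of the tdTomato+ library, against 2 counts in Eomes NK cells, a ratio of 48.3 (13.3 to 401). Its counts came from 43 of 206 cells, with 35% in 1 cell. In the tdTomato- library all 19 counts lay in 1 of 48 cells, so only the tdTomato+ value rests on several cells. T cells with NK genes of the tdTomato+ library held 86.6 CPM of *Gzmc*, in 23 of 157 cells.

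The promoters of *Gzmc* and *Gzma* are shown because the 2 granzymes differ in opposite directions. The windows are chr14:56234608-56234907 and chr13:113100932-113101231 (GRCm38.p6, RefSeq start sites, minus strand). Capitals mark matches, on either strand, to the motifs TGTGGTT (Runx), AGGTCA (nuclear receptor half-site) and GGTGTGA (T-box), which do not overlap here.
Gzmc: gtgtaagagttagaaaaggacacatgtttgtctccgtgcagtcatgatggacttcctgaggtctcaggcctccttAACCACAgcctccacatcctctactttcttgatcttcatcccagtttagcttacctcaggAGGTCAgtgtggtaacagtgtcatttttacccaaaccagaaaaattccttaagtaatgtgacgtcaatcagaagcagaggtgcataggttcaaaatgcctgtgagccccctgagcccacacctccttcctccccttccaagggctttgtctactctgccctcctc
Gzma: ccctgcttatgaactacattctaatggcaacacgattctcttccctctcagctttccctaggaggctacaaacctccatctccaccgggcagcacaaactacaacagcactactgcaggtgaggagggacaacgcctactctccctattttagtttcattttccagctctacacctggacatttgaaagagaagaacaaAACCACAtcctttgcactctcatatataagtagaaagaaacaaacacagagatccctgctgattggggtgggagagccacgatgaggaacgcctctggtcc
The *Gzmc* window holds 1 Runx match, as AACCACA, and 1 half-site match, and the *Gzma* window 1 Runx match. Among 27025 RefSeq promoters of this length, 1 per gene, 5.37% held the Runx, 16.0% the half-site and 3.96% the T-box letters. Of the 171 genes higher in both libraries 127 had a promoter in this set, and 7.87% held the Runx, 9.45% the half-site and 0.787% the T-box letters. For the 81 lower genes, 61 with a promoter, these shares were 8.20%, 1.64% and 4.92%, beside 4.04%, 12.2% and 3.24% of 2995 promoters of genes tested in both. The counts behind the shares are small, 10, 12 and 1 promoters of higher genes and 5, 1 and 3 of lower genes, and a match is a description of letters only.

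Cytokine genes moved both ways. Of 9 that reached the level in both libraries, *Tnf*, *Ltb*, *Xcl1* and *Il22* were higher and *Ccl3* and *Ccl5* lower in ILC1-like cells. *Tnf*, the inflammatory cytokine, stood at 209 against 38.3 CPM in tdTomato+ and 233 against 32.2 CPM in tdTomato- cells. *Ifng*, the interferon-γ gene, stayed under 2-fold in both, with 839 against 651 CPM (log2 0.37, 0.21 to 0.52) and 445 against 757 CPM (-0.77, -1.07 to -0.48). *Ccl3*, a chemokine for inflammatory cells, had log2 ratios of -1.08 and -1.74, and *Ccl5*, a related chemokine, -1.75 (-1.79 to -1.70) and -1.72 (-1.81 to -1.63). *Csf2*, which encodes GM-CSF, was higher in the tdTomato+ library, with 79.6 against 19.2 CPM, and under the level in the tdTomato- library. *Il22* came from 1 cell per library, with 246 counts in a tdTomato+ and 172 in a tdTomato- cell.

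**Figure D3:**
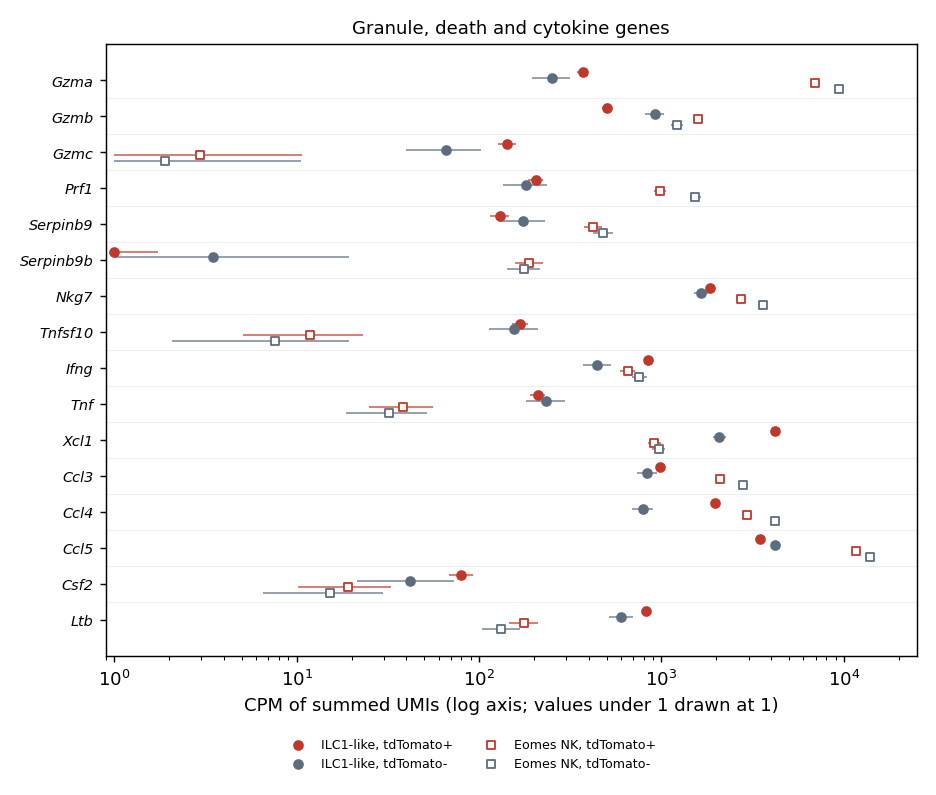
CPM of summed UMIs (log axis, values under 1 drawn at 1) of granule, death ligand and cytokine genes in ILC1-like cells (filled circles) and Eomes NK cells (open squares) of the tdTomato+ (red) and tdTomato- (grey) libraries; lines are 95% exact Poisson intervals. For *Gzma* the filled circles, at 370.4 and 250.1 CPM, lie more than a decade to the left of the open squares, and for *Tnfsf10* and *Tnf* they lie to the right.

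Inhibitory and costimulatory receptors were higher in ILC1-like cells, 6 of 9 in both libraries and none lower. *Lag3*, an inhibitory receptor for MHC class II, stood at 65.6 CPM, against 4.42 CPM in Eomes NK cells, in the tdTomato+ library and at 62.5 against 9.47 CPM among tdTomato- cells. *Cd160*, a receptor for HVEM and MHC class I, stood at 602 against 91.3 CPM and at 469 against 102 CPM. *Ctla4*, which competes with CD28 for its ligands, had log2 ratios of 2.55 and 3.36, *Icos*, a costimulatory receptor, 2.92 and 1.50, *Tnfrsf18*, which encodes GITR, 1.18 and 1.12, and *Cd96*, which shares a ligand with DNAM-1, 1.05 and 1.16. *Pdcd1*, which encodes PD-1, stayed under the level with 49 counts in 21 tdTomato+ and 2 counts in 2 tdTomato- ILC1-like cells, and 0 in Eomes NK cells.

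ILC1-like cells were not uniform. *Il7r* was detected in 148 tdTomato+ members and not in 58, groups of similar depth (medians 9357 and 8971 UMIs). In the tdTomato- library it was detected in 22 and not in 26, and there depth differed, with medians of 8274.5 and 2808 UMIs. *Gzma* stood at 255 CPM in tdTomato+ members with *Il7r* and 691 CPM in those without, and *Gzmb* at 448 and 649 CPM. *Tcf7*, which encodes TCF-1 of early lymphoid cells, stood at 122 and 63.6 CPM. In tdTomato- members with and without *Il7r*, *Klra5* stood at 0 and 860 CPM, *Itga1* at 68.6 and 753 CPM and *Gzmb* at 560 and 1471 CPM, alongside the difference in depth.

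**Figure D4:**
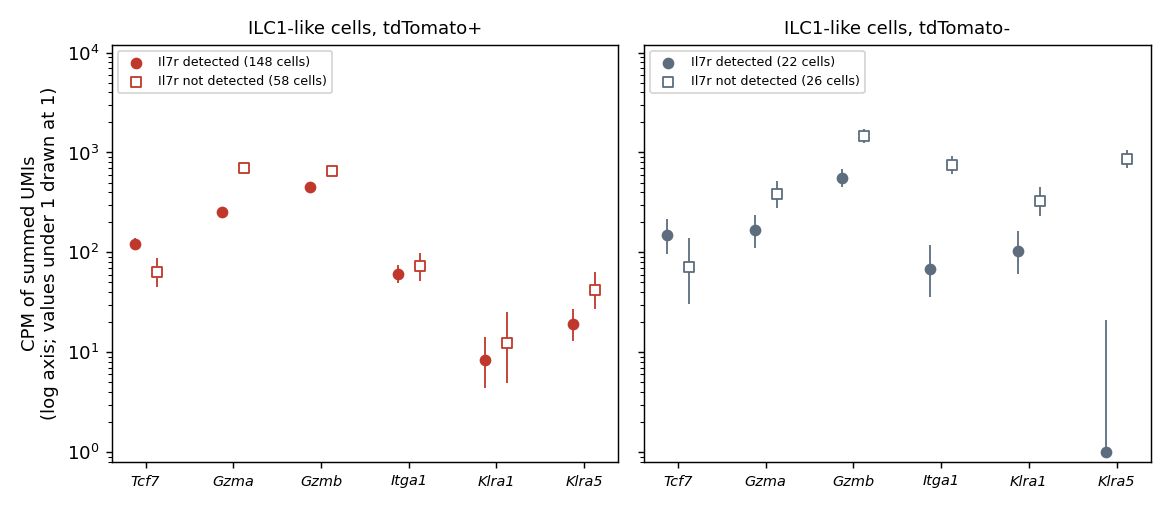
CPM of summed UMIs (vertical log axis, values under 1 drawn at 1) of 6 genes in ILC1-like cells with *Il7r* (filled circles) and without it (open squares), tdTomato+ on the left and tdTomato- on the right; lines are 95% exact Poisson intervals. In tdTomato+ cells *Tcf7* lies higher and *Gzma* and *Gzmb* lie lower with *Il7r*, and in tdTomato- cells *Klra5* was at 0 with *Il7r* and at 860 CPM without it.

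The list of 11 genes of type 2 and type 3 innate lymphoid cells summed to 287 CPM in tdTomato+ and 855 CPM in tdTomato- members, against 33.9 and 56.8 CPM in Eomes NK cells. A single cell held 43.4% of the tdTomato+ and 78.9% of the tdTomato- counts, and without the top cell of each group the sums were 164 and 188 CPM in members, against 31.9 and 51.7 CPM. The genes *Il13* and *Il17a* were at 0 in both groups of both libraries.

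The tdTomato- members fell into shallow and deeper cells. Of 48, 22 had under 5000 UMIs (median 2459.5) and 26 had more (median 8499.5), whereas only 9 of 206 tdTomato+ members were under 5000. *Klra5* stood at 1405 CPM in the shallow and 65.3 CPM in the deeper tdTomato- cells, *Itga1* at 1183 and 122 CPM, *Gzmb* at 2194 and 592 CPM, *Cd8a* at 274 and 0 CPM and *Trdc* at 206 and 8.71 CPM. *Il7r* stood at 120.0 CPM in the shallow and 423 CPM in the deeper cells, and *Tmem176a* at 68.6 and 414 CPM. T cells with NK genes of the same library (median 7887 UMIs) had 1026 CPM of *Klra5*, 401 CPM of *Itga1*, 5170 CPM of *Gzmb*, 458 CPM of *Cd8a* and 419 CPM of *Trdc*, and 52.7 CPM of *Il7r* and 18.7 CPM of *Tmem176a*. Whether some shallow members are such T cells with no *Cd3* count was not tested.

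Between the sorts, 123 of 4291 genes were higher (2.87%) and 281 lower (6.55%) in tdTomato+ than in tdTomato- ILC1-like cells. With at least 5000 UMIs per cell these counts were 102 and 117, and without the top cell of each gene 215 and 121. That last step took out 1 of 206 tdTomato+ and 1 of 48 tdTomato- cells for each gene, with UMI totals unchanged. It tends to raise the ratio of tdTomato+ over tdTomato- cells, and its part in these counts was not tested. In Eomes NK cells of the same libraries 126 of 3969 genes were higher (3.17%) and 64 lower (1.61%). Of the genes called in ILC1-like cells, 22 were also higher and 3 also lower in Eomes NK cells. The median log2 ratio of all ILC1-like genes with the level was -0.10.
Most ILC1 identity genes did not pass between the sorts. Of 15, *Xcl1* was higher in tdTomato+ cells (1.01, 0.89 to 1.13), *Cd69* was lower (-1.12, -1.32 to -0.92) and 13 passed in neither direction. *Tnfsf10* had 0.10 (-0.35 to 0.58), *Il7r* 0.06 (-0.23 to 0.37), *Rora* 0.08 (-0.20 to 0.38) and *Tmem176b* 0.11 (-0.09 to 0.33). *Xcl1* and *Cd69* came to 0.74 and -0.97 in cells with at least 5000 UMIs and were then under the 2-fold limit.

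Cell cycle genes were higher in tdTomato+ ILC1-like cells, 6 of 7 that reached the level and none lower. *Mki67*, a marker of dividing cells, had 168 CPM among tdTomato+ and 17.4 CPM among tdTomato- members, from 18 of 206 and 1 of 48 cells. These shares were 8.74% (5.26 to 13.5) and 2.08% (0.0527 to 11.1), so their intervals overlapped, and 2.95% and 5.56% of B cells held it. In Eomes NK cells it stood at 165 CPM on the tdTomato+ and 102 CPM on the tdTomato- side, where 89% lay in 1 cell. *Top2a*, a topoisomerase of dividing cells, had a log2 ratio of 2.39 (1.44 to 3.53), *Stmn1*, a microtubule regulator, 2.68 (1.44 to 4.32) and *Pclaf*, a replication clamp factor, 3.86 (1.99 to 6.91). Replication-dependent histone genes led the ranking, with *H2ac4* at 278 CPM against 1 count and *H2ac8* at 247 against 13.9 CPM. Histone genes of 1 class are close copies, so their single values are uncertain. Of the cell cycle list, 3 of 6 that reached the level were higher in tdTomato+ than in tdTomato- Eomes NK cells, *Pclaf*, *Mcm5* and *Tyms*. Of these, only *Pclaf* was also called in ILC1-like cells. Without cells that held receptor RNA, over 23 and 10 cells, *H2ac4*, *Stmn1*, *Top2a* and *Ube2c* turned to -1.90, -2.22, -0.90 and -0.31, and the counts of *Mki67* and *Pclaf* were too low for a value.
*Lyz2*, a lysozyme of myeloid cells, also ranked among the 10 highest, but 92% of its 194 tdTomato+ counts lay in 1 cell.

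Among the genes lower in tdTomato+ cells were receptors of T and NK cells. *Klra5* had 25.3 CPM in tdTomato+ against 337 CPM in tdTomato- members, *Klra1* 9.37 against 191 CPM, and *Cd8a*, a T cell coreceptor chain, 1 count against 55.6 CPM. *Lsamp*, a neuronal adhesion protein, had 225 against 1650 CPM, with 40% of the tdTomato- counts in 1 cell, and *Atp8a2*, a phospholipid flippase, 38.9 against 351 CPM. The unnamed transcript *Gm44174* had 0 counts in tdTomato+ and 90.3 CPM in tdTomato- members, at least 64.3-fold lower. All 44 tdTomato- counts of *Cxcl2*, and 94% of the 89 of *Lta*, lay in a single cell. In cells with at least 5000 UMIs *Klra5* stood at 25.7 against 65.3 CPM. There the log2 ratios of *Klra5* and *Lsamp* were -1.35 and -1.07, against -3.74 and -2.88 over all members, and that of *Klra1* -3.27, against -4.35, and these 3 were still called. *Atp8a2*, *Gm44174* and *Tmem163* were no longer called, at -0.57, -4.19 and -2.19, and the counts of *Cd8a* were too low for a value.
T cells with NK genes showed the same order for several of these genes, with 256 CPM among tdTomato+ against 1026 CPM among tdTomato- cells for *Klra5*, 75.2 against 458 CPM for *Cd8a*, 313 against 589 CPM for *Lsamp*, 137 against 283 CPM for *Atp8a2* and 13.2 against 96.4 CPM for *Gm44174*. The tdTomato+ and tdTomato- cells of that name were unlike in their *Cd3* genes and receptor chains, as given above.

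**Figure D5:**
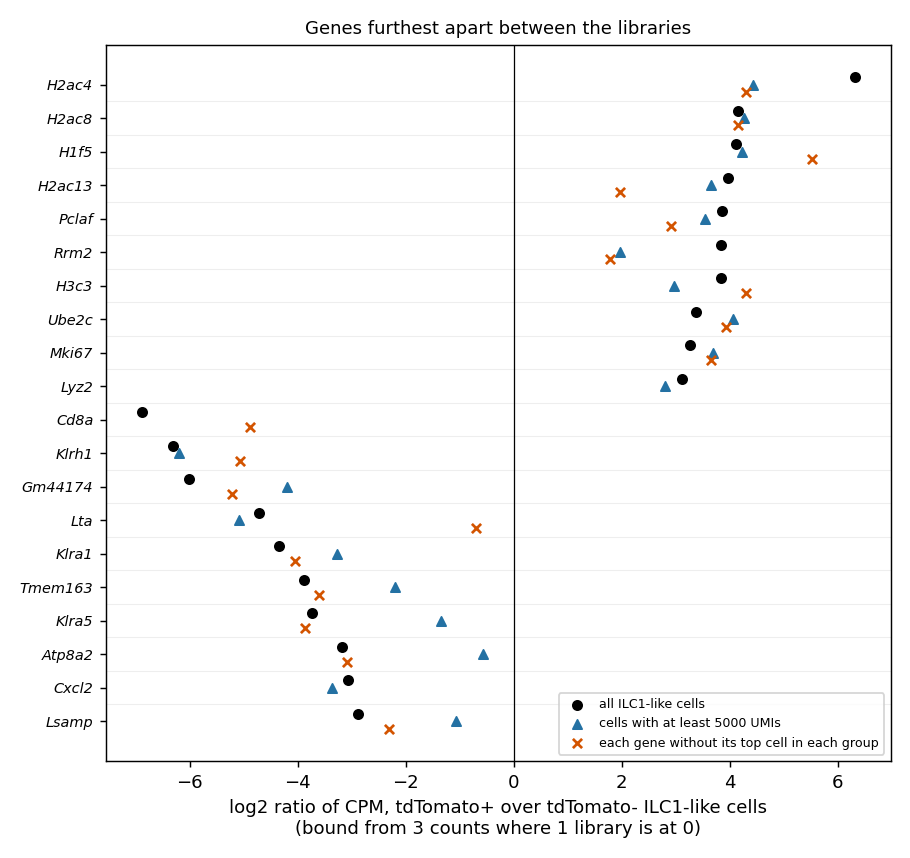
log2 ratio of CPM (horizontal axis) in tdTomato+ over tdTomato- ILC1-like cells for the 10 genes furthest apart each way (vertical axis), over all members (black circles), over members with at least 5000 UMIs (blue triangles) and without the cell with most counts of the gene (orange crosses). *Mki67* lies at 3.27 and *Klra1* at -4.35 over all members, and *Atp8a2* moves to -0.57 in cells with at least 5000 UMIs.

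RNA of other cell types was present beside these differences. The tdTomato+ members held 2135501 UMIs in all and the tdTomato- members 287884, so a marker at 0 says less in the tdTomato- library. Of 16 endothelial markers outside the rule, 0 were at 0 in tdTomato+ and 11 in tdTomato- members, and their summed level was 200.4 and 135 CPM, against 169 and 112 CPM in Eomes NK cells. Of 9 macrophage markers 0 and 4 were at 0, with summed levels of 138 and 24.3 CPM, but 1 tdTomato+ cell held 70.2% of the counts, and without the top cell of each group the levels were 41.6 and 21.0 CPM. Hepatocyte markers summed to 123 and 55.6 CPM, of which *Trf*, the gene of the iron carrier transferrin, made 109 and 55.6 CPM. The other 9 of 10, *Alb* among them, were at 0 in tdTomato- members. *Trf* was higher in ILC1-like than in Eomes NK cells of both libraries (log2 ratios 1.30 and 2.55). Red cell markers summed to 10.8 and 0 CPM. All 5 neutrophil markers were at 0 in both, and so were *Ms4a1* and *Ebf1* among the B cell markers. The 6 B cell markers outside the rule summed to 158 and 115 CPM in members, against 53.0 and 72.0 CPM in Eomes NK cells. At least 1 such count was found in 149 tdTomato+ and 23 tdTomato- members. Of these markers, *Ighm* was called higher than in Eomes NK cells of the tdTomato+ library (log2 ratio 1.47), and none in the tdTomato- library. The T cell list outside the rule, 13 genes, summed to 936 and 851 CPM. It summed to 463 and 456 CPM in Eomes NK cells, and to 1221 and 2353 CPM in T cells with NK genes. The part of this RNA in the differences between the libraries was not tested.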

How the data were processed

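CD45+ liver cells of 2 sorts were measured, tdTomato+ and tdTomato-, with 1 gene expression and 1 γδ receptor library each. The authors mapped reads to mm10 with Cell Ranger (software version 10.0.0 in the matrix header) and deposited whole-number UMI counts per gene and barcode, without further normalization, and tables of assembled receptor contigs. Strand use in counting is not stated in the sources used here.

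Cells kept had 300 or more genes detected and no more than 10% of their counts from mitochondria. Doublets were treated only by the exclusion genes of the rule and by an alternative that left out the 5% of cells with most UMIs. Counts were summed per cell group and library and scaled to CPM. Ratios carry exact conditional binomial intervals, shares exact Clopper-Pearson intervals and levels exact Poisson intervals, all at 95%. A gene was called with at least 50 CPM in either group, a ratio of at least 2 and an interval that leaves out no change. Ratios against 0 counts are bounds from a floor of 3 counts over the group. Depth was matched by thinning cells to 2000 UMIs. The calculation was tested on simulated data.

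Members and the 23 gene lists were chosen with earlier results of these data known. Genes named are members of those lists and the 10 furthest apart each way, in both libraries between ILC1-like and Eomes NK cells, ranked by the smaller absolute log2 ratio, and between the libraries. Rule genes, mitochondrial genes and receptor or immunoglobulin segments were left out of the rankings, and a few members of the lists are not reported here. *Pbx3* and *Ppp1r12c* and the MHC class II genes in the closing section were named by their opposite directions. Of the alternatives, 9 were planned and 4, with the limit of 5000 UMIs, the *Trac* or *Trdc*, the top cell and the residency conditions, were chosen after the data had been seen. Scripts ran in Python 3.11.15 with scipy 1.17.1, numpy 2.4.6, matplotlib 3.10.9 and pandas 2.3.3, with gene coordinates from GENCODE M21 and promoters from RefSeq.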

Additional observations from a re-analysis of the deposited data

Results flagged for a closer look

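Called in opposite directions against Eomes NK cells in the 2 libraries were 5 genes, and the difference between the libraries was not tested. The MHC class II chaperone *Cd74* had a log2 ratio of -1.15 in tdTomato+ and 5.56 in tdTomato- cells, *H2-Ab1* -2.32 and 3.20 (a bound, against 0 counts in Eomes NK cells), and *H2-Eb1* -1.76 and 2.29. Single cells held a large part of these counts. In tdTomato+ Eomes NK cells 1 cell held 98.2% of the *Cd74*, 98.9% of the *H2-Ab1* and 94.3% of the *H2-Eb1* counts, and in tdTomato- ILC1-like cells 1 cell held 61.7%, 60.0% and 43.8%. *Pbx3*, a homeodomain factor, had -1.29 and 2.00, with 21.1 against 51.6 CPM in the tdTomato+ and 83.4 against 20.8 CPM among tdTomato- cells. *Ppp1r12c*, a phosphatase subunit, had 1.04 and -1.16, with 66.5 against 32.4 CPM and 38.2 against 85.2 CPM.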

How the results depend on the processing

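Of 118 recomputed shares and counts, 99 stayed close to the reported value. Of 1891 recomputed values of named genes, 1887 kept their sign and 1796 were still called, in either direction, and 26 others had counts too low for a value. Against Eomes NK cells 1471 of 1514 stayed called and 0 changed sign. Between the libraries 325 of 377 stayed called, in either direction, and 4 changed sign. *Stmn1* without receptor RNA is counted in both, as it was then called lower. These totals include an alternative that required *Ncr1*, which kept the same cells. They also include the one with no level minimum, which could not undo the call of a gene. Between the libraries each of these left 33 of 33 named genes called, an outcome that was fixed beforehand. The share of ILC1-like cells was 0.131% of tdTomato+ and 0.0550% of tdTomato- cells without receptor RNA, 0.851% and 0.193% without *Trac* or *Trdc*, 0.880% of tdTomato+ cells without endothelial RNA, and 0.143% of tdTomato- cells at 5000 UMIs or more. With no level minimum, 656 genes were higher and 571 lower than in Eomes NK cells of the tdTomato+ library, 871 and 312 in the tdTomato- library, 305 and 141 in both, and 245 higher and 598 lower between the sorts. Without receptor RNA 368 genes were lower than in Eomes NK cells of the tdTomato+ library. Between the sorts, 541 genes were lower after thinning and 117 at 5000 UMIs or more, and 215 were higher and 121 lower without each gene's top cell. That step tends to raise tdTomato+ over tdTomato- ratios, as 1 of 48 tdTomato- cells is a larger part than 1 of 206 tdTomato+ cells. Signs between the sorts turned without receptor RNA for *H2ac4* (-1.90), *Stmn1* (-2.22), *Top2a* (-0.90) and *Ube2c* (-0.31), and the cause was not tested. No paired analysis was possible because the labels give no replicate numbers and each sort has 1 library. The 48 tdTomato- members, with a median of 5762 UMIs, limit every value that rests on them.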

Other observations

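Of 12 cytokine receptors that reached the level in both libraries, *Il2ra*, *Il7r* and *Il21r* were higher in ILC1-like cells and *Il10ra* was lower. Those 3 also belong to the list of ILC1 identity genes, so their calls are the ones counted there. Across the receptors the list medians were 0.45 in tdTomato+ and 0.21 in tdTomato- cells. *Il2ra*, the high-affinity chain of the IL-2 receptor, stood at 122 CPM in ILC1-like and 8.84 CPM in Eomes NK cells of the tdTomato+ library, and at 101 against 7.57 CPM among tdTomato- cells. *Il2rb*, the chain shared with the IL-15 receptor, had log2 ratios of 0.48 and 0.19, and *Il18r1*, a receptor for IL-18, 0.42 and -0.16, all under 2-fold.

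Immediate-early genes, which rise within minutes of stimulation or of tissue dissociation, did not separate the groups as a list. None of 12 was higher in both libraries, and *Nr4a1*, an orphan nuclear receptor induced by receptor signals, was lower, with -1.50 (-1.71 to -1.29) in tdTomato+ and -1.59 (-1.94 to -1.25) in tdTomato- cells. None of the 12 was called between tdTomato+ and tdTomato- ILC1-like cells, where the list median was -0.28.

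Of 4 interferon-response genes tested in both libraries, *Ly6a*, which encodes Sca-1, was higher in ILC1-like cells, at 558 against 140.0 CPM in tdTomato+ and 163 against 70.1 CPM in tdTomato- cells, where 55% of the ILC1-like counts lay in 1 cell. Between the sorts, *Ly6a* and the ubiquitin-like *Isg15* were higher in tdTomato+ ILC1-like cells among 5 tested, with log2 ratios of 1.77 (1.35 to 2.23) and 2.23 (1.16 to 3.56).

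*Trbc2*, a constant gene of the T cell receptor β chain, was higher than in Eomes NK cells in both libraries (2.00 and 1.57) and higher in tdTomato+ than in tdTomato- ILC1-like cells (1.07, 0.64 to 1.53).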
